A study of Mus musculus with 26 samples.

Results

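Regions of RNA carrying 5-hydroxymethylcytosine (5hmC) peaks were compared between mouse embryonic stem cells that lack all the Tet enzymes (TKO ESC) and embryoid bodies formed from wild-type stem cells (WT EB). The peak lists of 6 immunoprecipitated libraries, 3 of each group, were joined, intervals that had 1 bp or more in common forming a single region, which left 7657 regions. A region was named TKO-only when replicates 2 and 3 of TKO ESC had a peak in it and no WT EB library did, EB-only in the mirrored case, and shared when replicates 2 and 3 of both groups had a peak. This gave 473 TKO-only, 143 EB-only and 805 shared regions, 1421 of the 7657, and replicate 1 of each group served as a check. TKO ESC carry knock-outs of Tet1, Tet2 and Tet3 and were grown with leukaemia inhibitory factor. WT EB are Tet wild type and were collected after 4 days without that factor. The groups thus differed in genotype and in differentiation at once, and these cannot be told apart between them. WT ESC, the wild-type stem cells grown with the factor (3 libraries), gave the reference in between, and 4 libraries of stem cells with a tagged Tet2 or a tagged Tet2 without its RNA-binding domain (Tet2-KI ESC and Tet2dRBD-KI ESC, each a picked clone line) were used only for the presence of peaks. The study describes its hMeRIP-seq replicates as independent experiments, and the labels do not say how they were separated.

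5hmC is the product of oxidation of 5-methylcytosine. The Tet proteins are dioxygenases known for carrying out this step on DNA, and they can act on RNA as well. Stem cells held in leukaemia inhibitory factor keep the pluripotent state, and when they are cultured in suspension without it they aggregate into embryoid bodies, in which an outer layer of primitive endoderm and early germ layer cells arise. In hMeRIP-seq, RNA fragments are pulled down with an antibody against 5hmC and peaks are called against an input library of RNA that was not pulled down. The value attached to a peak is the fold enrichment of the immunoprecipitate over its input at the summit. A peak therefore depends on how much of the transcript was present as well as on its modification, and the lists do not separate them.

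The lists held 964, 4323 and 3262 peaks in TKO ESC replicates 1 to 3 and 498, 1831 and 3532 in WT EB replicates 1 to 3. Replicate 1 had the shortest list in both groups. Its description begins with another number (1608 in TKO ESC, 1610 in WT EB) than those of replicates 2 and 3 (1703), and its peaks had a mean GC content of 51.9% and 52.5%, against 42.3% to 44.5% in the other 4 lists. The lists did not sort by group. The Jaccard index, the regions common to a pair of libraries over the regions in either, was 0.302 for TKO ESC replicates 2 and 3, 0.321 for WT EB replicates 2 and 3, and 0.330 for TKO ESC replicate 2 with WT EB replicate 3. Over all 6 libraries the mean index within groups was 0.161 and that between groups 0.173, a difference of -0.012 (one-sided exact permutation test p = 0.6, smallest possible 0.1).

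Marker genes gave a thin check of the labels, since a peak is not a measure of expression. Of 22 embryoid body markers (Sox1 was not in the annotation) none had a peak in any TKO ESC library. In at least 1 WT EB library 5 had one (Sox17, Krt8, Col4a1, Lamb1 and Dab2). Sox17 had it in WT EB replicate 2 only, and Krt8 and Lamb1 in replicate 3 only. Of 11 stem cell markers 2 had a peak in TKO ESC (Tdgf1 and Dppa4) and 2 in WT EB (Sox2 and Zfp42), while the stem cell factors Pou5f1 and Nanog had none in any of the 6 libraries. In a wider list of 20 basement membrane and endoderm cytoskeleton genes, which shares some of these markers, 4 had a peak in TKO ESC and 6 in WT EB. Tet1 (chromosome 10, 62267318 to 62361866) had 1, 2 and 1 peaks in TKO ESC replicates 1 to 3 and 1 peak in WT EB replicate 1, and Tet2 and Tet3 had none. Tet peaks say nothing of the knock-out itself, because the lists do not show which exons are absent.

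The sequences below are the 200 bp intervals of regions among the highest ranked of each class that lay in introns or coding sequence, read from NCBIM37 (the assembly behind mm9) on the strand of the gene. They are shown to let the base content behind the peaks be seen, and capitals mark the 30 nt window with the most purines. The first 4 are TKO-only regions.
Cdh4 (chr2:179240738-179240937, + strand, intron): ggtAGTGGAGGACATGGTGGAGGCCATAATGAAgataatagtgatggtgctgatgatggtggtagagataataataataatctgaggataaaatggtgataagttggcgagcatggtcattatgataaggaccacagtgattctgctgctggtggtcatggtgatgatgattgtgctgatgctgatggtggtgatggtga
Cobl (chr11:12351750-12351949, - strand, intron): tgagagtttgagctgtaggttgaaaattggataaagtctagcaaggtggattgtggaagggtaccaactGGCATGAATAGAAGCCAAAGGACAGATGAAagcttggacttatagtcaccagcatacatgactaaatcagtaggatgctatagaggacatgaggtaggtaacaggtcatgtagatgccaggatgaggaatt
Cdk8 (chr5:147092602-147092801, + strand, intron): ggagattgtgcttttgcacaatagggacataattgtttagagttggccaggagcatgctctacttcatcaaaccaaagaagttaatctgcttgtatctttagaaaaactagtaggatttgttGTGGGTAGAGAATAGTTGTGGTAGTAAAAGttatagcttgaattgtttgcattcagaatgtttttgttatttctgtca
Znrf2 (chr6:54829332-54829531, + strand, intron): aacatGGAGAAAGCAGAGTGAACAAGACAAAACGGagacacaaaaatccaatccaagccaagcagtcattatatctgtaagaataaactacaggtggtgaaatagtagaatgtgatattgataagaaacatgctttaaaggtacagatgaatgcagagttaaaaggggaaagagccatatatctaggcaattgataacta

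The next 4 are EB-only regions, of which 2 lay in coding sequence.
Dab2 (chr15:6376886-6377085, + strand, intron): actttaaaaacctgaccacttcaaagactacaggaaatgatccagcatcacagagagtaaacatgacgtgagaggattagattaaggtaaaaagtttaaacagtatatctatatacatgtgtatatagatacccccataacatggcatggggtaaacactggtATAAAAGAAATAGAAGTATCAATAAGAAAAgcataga
Smc3 (chr19:53696250-53696449, + strand, coding sequence): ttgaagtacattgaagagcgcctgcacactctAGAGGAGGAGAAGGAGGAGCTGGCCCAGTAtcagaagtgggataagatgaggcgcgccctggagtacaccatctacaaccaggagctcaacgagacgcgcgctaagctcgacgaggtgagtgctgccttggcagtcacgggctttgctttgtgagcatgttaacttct
Cdc73 (chr1:145524813-145525012, - strand, coding sequence): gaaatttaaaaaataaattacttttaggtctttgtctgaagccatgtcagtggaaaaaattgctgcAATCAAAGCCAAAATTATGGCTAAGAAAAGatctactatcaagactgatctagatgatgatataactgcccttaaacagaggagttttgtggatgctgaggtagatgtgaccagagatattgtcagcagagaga
Gpc3 (chrX:49869696-49869895, - strand, intron): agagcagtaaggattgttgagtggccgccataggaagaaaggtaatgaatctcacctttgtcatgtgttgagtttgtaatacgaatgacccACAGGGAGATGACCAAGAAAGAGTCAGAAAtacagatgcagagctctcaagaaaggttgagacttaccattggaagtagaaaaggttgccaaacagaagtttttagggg

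The last 4 are shared regions with high ranks in all 4 libraries of replicates 2 and 3.
Mphosph8 (chr14:57293135-57293334, + strand, coding sequence): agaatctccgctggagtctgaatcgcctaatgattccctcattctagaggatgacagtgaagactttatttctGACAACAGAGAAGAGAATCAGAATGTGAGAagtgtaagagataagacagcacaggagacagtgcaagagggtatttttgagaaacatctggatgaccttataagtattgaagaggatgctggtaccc
Htatsf1 (chrX:54319700-54319899, + strand, coding sequence): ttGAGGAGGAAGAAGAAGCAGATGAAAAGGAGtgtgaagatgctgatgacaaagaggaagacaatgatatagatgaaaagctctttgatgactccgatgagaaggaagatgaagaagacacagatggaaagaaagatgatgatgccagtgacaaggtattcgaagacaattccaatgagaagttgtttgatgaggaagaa
Smc2 (chr4:52482699-52482898, + strand, coding sequence): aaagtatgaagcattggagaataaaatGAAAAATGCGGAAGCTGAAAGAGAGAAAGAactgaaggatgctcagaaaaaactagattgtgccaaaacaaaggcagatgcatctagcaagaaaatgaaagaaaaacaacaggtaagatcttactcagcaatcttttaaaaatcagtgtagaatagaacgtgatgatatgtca
Dyrk1a (chr16:94851721-94851920, + strand, intron): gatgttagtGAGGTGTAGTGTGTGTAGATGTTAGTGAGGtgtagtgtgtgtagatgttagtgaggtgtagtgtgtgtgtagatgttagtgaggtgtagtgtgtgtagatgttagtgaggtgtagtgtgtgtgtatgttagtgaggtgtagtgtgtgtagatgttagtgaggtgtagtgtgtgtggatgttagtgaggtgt

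All 12 intervals held more purine than pyrimidine on the gene's strand, from 52.0% purine in Cdk8 to 72.5% in Htatsf1. This was not particular to them, as the median pyrimidine content over all regions in coding genes was 41.5%. Not every named region did so: Rab37 (EB-only) held 51.5% pyrimidine and Xist (shared) 74.0%. The study reports a UC-rich, and so pyrimidine-rich, motif at the centres of its WT ESC peaks. An interval is named by the place of its summit, so one called coding sequence may run into an intron. The lists carry no strand, so the reading direction rests on the annotated gene.

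The TKO-only class was made up mostly of introns. Of its 473 regions 339 lay in introns, 35 in coding sequence, 8 in 3′ UTRs, 1 in a 5′ UTR, 12 in noncoding genes and 78 between genes. Among the 383 regions in coding genes the intronic share was 88.5% (95% Clopper-Pearson interval 84.9% to 91.5%, counting error only, as for all intervals here). The EB-only class had 84 intronic and 34 coding regions among 143, with 9 in 3′ UTRs, 3 in 5′ UTRs, 2 in noncoding genes and 11 between genes. Its intronic share in coding genes was 64.6% (55.8% to 72.8%) of 130, near the 66.2% over all regions in coding genes. The shared class was split between introns (367) and coding sequence (369), an intronic share of 48.5% (44.9% to 52.2%) of 756. TKO-only regions were thus 23.9 percentage points more intronic than EB-only regions (14.9 to 33.3).

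**Figure D1:**
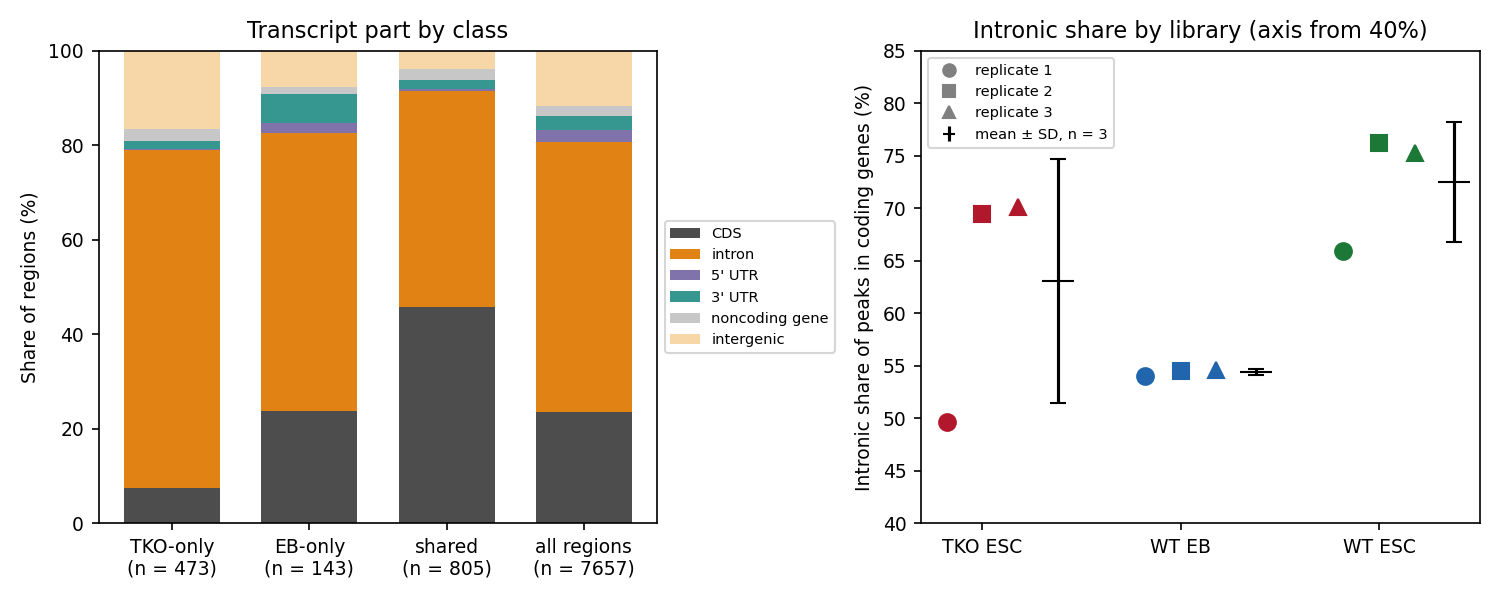
Left, the share of regions (%) in each part of the transcript for the 3 classes and for all 7657 regions. Right, the share (%) of coding-gene peaks that lay in introns for each library, with the mean and SD of 3 replicates. TKO ESC replicates 2 and 3 sit at 69.4% and 70.1%, TKO ESC replicate 1 at 49.7%, and the 3 WT EB libraries between 54.1% and 54.6%.

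The lengths of the lists bore on how many regions fell in a class, but not on the direction of this contrast. With the 4 lists of replicates 2 and 3 shortened to the 1831 highest peaks, 194 TKO-only, 168 EB-only and 418 shared regions were left. The excess of TKO-only over EB-only regions in the whole lists (473 against 143) was therefore smaller at equal length. The intronic shares were then 90.9% for TKO-only and 48.0% for EB-only regions, a difference of 42.8 points. Leaving out a library moved the counts further. There were 1567, 2103 and 783 TKO-only regions without TKO ESC replicate 2, TKO ESC replicate 3 and WT EB replicate 3, and 347, 1266 and 347 EB-only regions without TKO ESC replicate 2, WT EB replicate 2 and WT EB replicate 3.

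Across whole libraries the same contrast held in replicates 2 and 3 only. Among peaks that fell in coding genes, introns held 49.7%, 69.4% and 70.1% in TKO ESC replicates 1 to 3 (mean 63.1% ± 11.6, SD, n = 3). In WT EB they held 54.1%, 54.5% and 54.6% (mean 54.4% ± 0.280, SD, n = 3). TKO ESC replicate 1 lay below all WT EB libraries and the other TKO ESC libraries above them, so the groups overlapped, and the difference of 8.70 points gave p = 0.4 (two-sided exact permutation test, smallest possible 0.1). Within replicates 2 and 3 it was 15.2 points (exact permutation p = 0.333, the smallest that 2 against 2 allows). Peaks between genes made up 15.5%, 7.98% and 14.9% in TKO ESC, and 5.82%, 8.85% and 4.98% in WT EB, and there was overlap between the groups (6.24 points, exact permutation p = 0.2). The 3′ UTR share of peaks in coding genes stood at 4.09%, 2.78% and 2.69% in TKO ESC and 8.57%, 3.50% and 3.24% in WT EB (-1.92 points, exact permutation p = 0.5). Without WT EB replicate 1, the highest of the 6, the difference was -0.18 points (exact permutation p = 1.0).

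Introns of the classes differed in where the peak sat. Intronic summits of TKO-only regions lay at a median of 2931 bp from the nearest exon of the gene (quartiles 754.5 and 11900 bp), those of EB-only regions at 358 bp (35 and 7019 bp) and those of shared regions at 98.0 bp (30.5 and 2233 bp), against a median of 1219.5 bp over all 4368 intronic regions. Within 200 bp of an exon lay 30 of 339 TKO-only intronic regions, 8.85% (6.05% to 12.4%). The same held for 41 of 84 EB-only regions, 48.8% (37.7% to 60.0%), and 187 of 367 shared regions, 51.0% (45.7% to 56.2%), against 33.1% of all intronic regions. With lists of equal length the medians were 2503 bp for TKO-only, 46 bp for EB-only and 62 bp for shared regions. The EB-only and shared classes thus changed order. The shares within 200 bp were then 8.72%, 67.1% and 54.0%. Under both list lengths peaks close to an exon made up a smaller part of the intronic regions in the TKO-only class than in the EB-only and shared classes. First introns held 26.5% of TKO-only, 14.3% of EB-only and 17.4% of shared intronic regions, against 23.0% of all intronic regions, which the TKO-only interval (21.9% to 31.6%) includes.

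**Figure D2:**
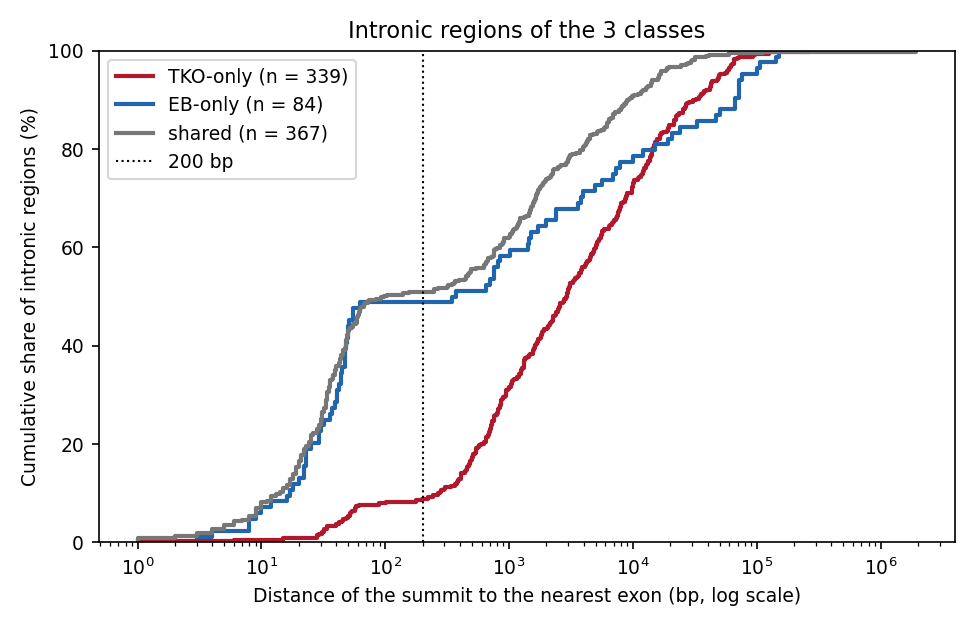
Cumulative share (%) of the intronic regions of each class by the distance of the summit to the nearest exon (bp, log scale), with a dotted line at 200 bp. At that line the TKO-only curve stands at 8.85%, the EB-only curve at 48.8% and the shared curve at 51.0%.

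The whole lists showed the same order by library. The median distance of intronic peaks to an exon was 1305, 1419 and 1267 bp in TKO ESC replicates 1 to 3 and 1150, 418 and 73 bp in WT EB replicates 1 to 3. All TKO ESC libraries lay above all WT EB libraries, with means of 1330 ± 78.8 and 547 ± 550 bp (SD, n = 3 each). The difference of 783 bp gave an exact permutation p = 0.1, the smallest that 3 against 3 allows, and this measure was chosen after its values were seen. Replicate 1 of the groups differed least. The share within 200 bp was 31.9%, 30.3% and 31.7% in TKO ESC. In WT EB it was 29.7%, 46.9% and 51.8%, where replicate 1 lay with TKO ESC (exact permutation p = 0.4). WT ESC replicates 1 to 3 had medians of 2094, 2049.5 and 2240 bp and shares within 200 bp of 18.4%, 18.7% and 18.7%. Long distances to an exon were therefore not particular to TKO ESC.

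TKO-only regions lay in long genes, with a median gene length of 92.3 kb, against 57.4 kb for EB-only, 49.1 kb for shared and 58.9 kb for all regions. Among intronic regions alone the medians were 105 kb, 66.4 kb and 54.4 kb, against 74.2 kb for all. A tandem repeat, a run of a unit of at most 4 nt over at least 18 nt (20 nt for units of 4), was present in 8.88% of TKO-only, 4.196% of EB-only and 2.24% of shared regions, and in 8.42% of all regions.

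Base content was compared by class and transcript part. The hexamer GAAGAA, searched on the strand of the gene only, was present in 53.7% of shared coding-sequence regions (198 of 369, 48.4% to 58.8%), 48.6% of TKO-only (17 of 35, 31.4% to 66.01%) and 20.6% of EB-only (7 of 34, 8.70% to 37.9%). Over all coding-sequence regions it was 36.0%, which the TKO-only and EB-only intervals both include. In introns it was found at similar shares, 23.3% of TKO-only, 25% of EB-only and 26.2% of shared regions, against 22.1% of all intronic regions. The reverse complement TTCTTC, searched on that same strand, was found in 3.92%, 3.85% and 5.29% of regions in coding genes, against 5.94% over all. Pyrimidine content of 35% or less was seen in 33.9% (28.9% to 39.2%) of TKO-only, 16.7% (9.42% to 26.4%) of EB-only and 21.3% (17.2% to 25.8%) of shared intronic regions. Of all intronic regions 22.3% had it, which lies within the EB-only and shared intervals. In coding sequence the shares were 45.7% (28.8% to 63.4%), 26.5% (12.9% to 44.4%) and 36.9% (31.9% to 42.0%) in the same order. Of all coding-sequence regions 18.5% had it, which lies within the EB-only interval and below the other intervals.

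Of the TKO-only regions in coding genes that ranked highest, Cdh4 and Cobl led, and intergenic regions of chromosomes 19 and 17 stood between them. Ranks are percentiles of fold enrichment within each list, 100 being the highest peak. Cdh4, which codes for the calcium-dependent adhesion protein R-cadherin, had fold enrichments of 20.7, 38.9 and 25.5 in TKO ESC replicates 1 to 3 (percentiles 99.5, 99.7 and 99.0), in intron 2 and 61322 bp from an exon. It had no peak in WT EB, but one in all 3 WT ESC and all 4 knock-in libraries. Cobl, an actin nucleator, had 29.3 and 17.8 in replicates 2 and 3, also with peaks in all 3 WT ESC libraries. Cdk8, the kinase of the Mediator complex, had 16.5 and 16.0. Znrf2, a ubiquitin ligase, had 16.5 and 13.6. Zfp148, a zinc finger transcription factor, had 15.1 and 14.7, and Mtpap, the mitochondrial poly(A) polymerase, 15.2 and 13.7. BC005561 was the one coding-sequence region among these, with 15.6 and 13.9. Cdk8, Znrf2 and Zfp148 had a peak in 1 WT ESC library, and Mtpap and BC005561 in 2. Cdh4 was the one with a peak in TKO ESC replicate 1.

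The EB-only region that ranked highest was intergenic, on chromosome 9, and Dab2 led those in coding genes. Dab2, an endocytic adaptor known as a marker of primitive and visceral endoderm, had fold enrichments of 15.2 and 20.1 in WT EB replicates 2 and 3 (percentiles 93.0 and 96.9), in intron 9 and 345 bp from an exon, with a peak in 1 WT ESC library. A further Dab2 intronic region had 5.93 and 12.6. Cubn, the endocytic receptor cubilin of the visceral endoderm, had 10.3 and 16.9 in an intron with an AGAT repeat and no peak in WT ESC or knock-in libraries. Gpc3, a heparan sulphate proteoglycan, had 30.1 and 12.2. The cohesin subunit gene Smc3 had 17.7 and 14.6 in coding sequence, Cdc73 of the PAF1 elongation complex 12.8 and 13.2, Sfrs18 10.2 and 15.0, and the paraspeckle protein gene Sfpq 11.1 and 9.77 in an intron, 8 bp from an exon. Rab37, a small GTPase gene, had 15.3 and 10.7. Smc3, Rab37 and Sfpq had a peak in all 3 WT ESC libraries and Gpc3 in 2, whereas Cdc73 and Sfrs18 had none. None of these 8 had a peak in WT EB replicate 1.

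**Figure D3:**
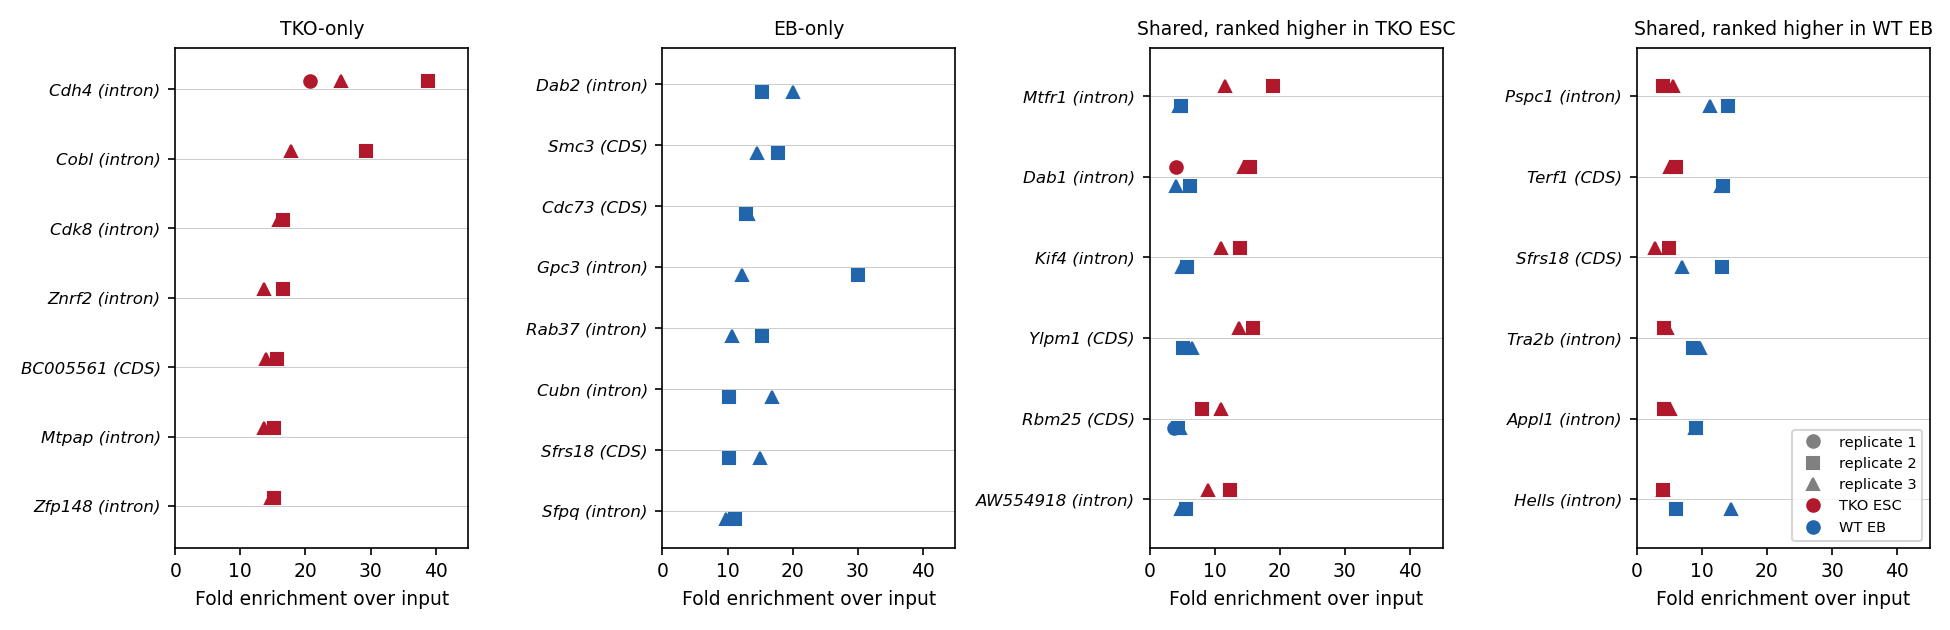
Fold enrichment over input (x axis) of 7 TKO-only and 8 EB-only regions among the highest ranked and of the shared regions with the largest rank differences, with the transcript part beside each gene. Red marks TKO ESC, blue WT EB, and the symbol gives the replicate. A missing symbol means no peak. Cdh4 is highest with 20.7, 38.9 and 25.5 in TKO ESC, and Gpc3 reaches 30.1 in WT EB replicate 2.

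Replicate 1, which the rule used only for absence in the other group, had a peak in 57 of 473 TKO-only regions, 12.1% (9.26% to 15.3%). In WT EB it had one in 5 of 143 EB-only regions, 3.50% (1.14% to 7.97%). Over all 7657 regions these lists had a peak in 11.9% and 6.39%, which lie within the respective intervals. The shared class gave 28.3% for TKO ESC replicate 1 and 12.4% for WT EB replicate 1. Besides Cdh4, the TKO-only regions with the highest ranks in all 3 replicates were in Tcfcp2l1 (fold enrichment 9.62, 14.4 and 16.7), a transcription factor of the pluripotent state, in the calcium channel gene Cacna1a (8.04, 13.8 and 10.3), in the 3′ UTR of Riok2 (10.6, 33.0 and 8.84), a kinase of small ribosomal subunit assembly, and in intergenic regions of chromosomes 17 and 19. The 5 EB-only regions lay in coding sequence of the remodeller gene Chd1 (10.5, 12.5 and 4.57), in the 3′ UTRs of Trim12c (9.07, 7.47 and 6.17), where Trim34a overlaps, and of Amot (8.58, 6.07 and 4.97), a junction protein of Hippo signalling, and in intergenic regions of chromosomes 9 (9.75, 19.5 and 20.2) and 1 (7.05, 9.88 and 10.5).

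Several genes held more than 1 region of a class. Etl4 had 5 TKO-only intronic regions in 901 kb, with fold enrichments from 6.65 to 10.999 in TKO ESC replicate 2 and from 3.58 to 13.9 in replicate 3. Diap2, Enox1 and Exoc4, genes of 716, 565 and 725 kb, had 3 each, all intronic. Among EB-only regions, Uchl5, a deubiquitinase of the proteasome, had 5, of which 4 were intronic and lay 8 to 47 bp from an exon, and none overlapped a WT ESC peak. Gpc3 had 4 intronic regions, 66178 to 76460 bp from an exon. Amot and Eda, the ectodysplasin gene, had 3 each. Gpc3, Amot and Eda are X-linked and gave 10 of the 14 EB-only regions on chromosome X, which held 9.79% of EB-only, 4.44% of TKO-only and 6.83% of shared regions, against 4.56% of all regions. Rock1, a kinase of the actomyosin cytoskeleton, led the shared class with 11 regions, followed by the translation factor gene Eif3a and the nuclear pore gene Tpr with 9 each and the remodeller gene Atrx with 8.

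Just outside the 2 specific classes, 425 regions with peaks in TKO ESC replicates 2 and 3 also had a peak in some but not both of WT EB replicates 2 and 3 or in WT EB replicate 1. Of these, 11 were kept out of the TKO-only class by WT EB replicate 1 alone. In the mirrored case there were 292 regions, 6 of them held out by TKO ESC replicate 1 alone. Members of the specific classes ranked near the middle of their lists, with median percentiles of 54.1 and 49.2 for TKO-only regions in TKO ESC replicates 2 and 3 and of 38.7 and 55.4 for EB-only regions in WT EB replicates 2 and 3. Shared regions stood higher, with 79.9, 76.3, 65.7 and 76.5 in the same 4 libraries.

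WT ESC libraries, which the rule did not use, had a peak in most TKO-only regions. At least 1 of the 3 WT ESC lists held a peak in 340 of 473 TKO-only regions, 71.9% (67.6% to 75.9%), and all 3 did in 116. In the EB-only class the count was 63 of 143, 44.1% (35.8% to 52.6%), with 14 in all 3 lists. In the shared class it was 723 of 805, 89.8% (87.5% to 91.8%), with 327 in all 3. Over all 7657 regions the share was 51.7%. Of these regions 4403 had a peak in 1 library only of the 6, whereas each class needs peaks in more than 1 library. The WT ESC lists were longer than those of the 6 libraries, with 4395, 7113 and 6499 peaks in replicates 1 to 3. Peaks between genes made up 29.4%, 23.1% and 26.1% of them. By WT ESC replicate 1, 2 and 3 the share was 31.1%, 58.1% and 54.1% for TKO-only regions. It was 13.3%, 34.97% and 26.6% for EB-only regions and 45.3%, 81.4% and 75.8% for shared regions. The classes stood in the same order in every library. Over all regions it was 23.2%, 38.3% and 35.4%, and the EB-only interval for replicate 2 (27.2% to 43.4%) includes that value. WT ESC share the undifferentiated state of TKO ESC and the Tet genotype of WT EB. Without TKO ESC replicate 3 the TKO-only share was 44.7%, and without WT EB replicate 2 the EB-only share was 19.98%.

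**Figure D4:**
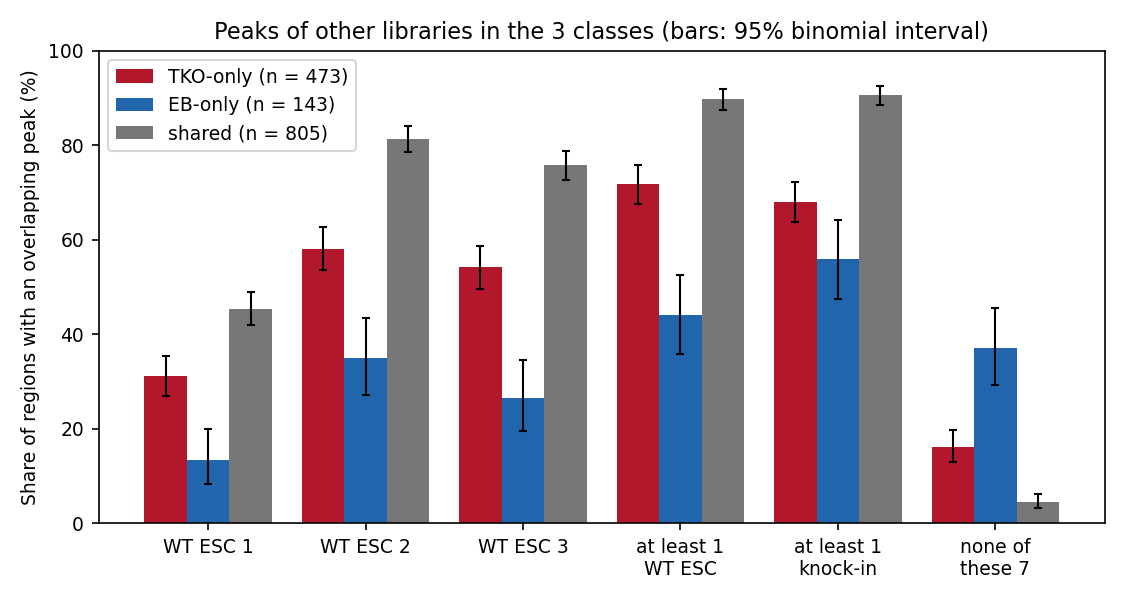
Share of the regions of each class (%) that overlap a peak of each WT ESC library, of at least 1 WT ESC or knock-in library, or of none of these 7, with 95% binomial intervals. TKO-only regions reach 71.9% with a WT ESC peak, EB-only 44.1% and shared 89.8%.

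In introns 73.5% of 339 TKO-only and 46.4% of 84 EB-only regions had a WT ESC peak, against 51.7% of all intronic regions. Between genes it was 73.1% of 78 and 72.7% of 11, near the 68.6% of all intergenic regions. In coding sequence the shares were 51.4% of 35 (34.0% to 68.6%) and 41.2% of 34 (24.6% to 59.3%), whose intervals overlap and both include the 46.0% of all coding-sequence regions. At least 1 knock-in library had a peak in 68.1% of TKO-only, 55.9% of EB-only and 90.7% of shared regions, against 57.0% of all regions. No WT ESC and no knock-in peak was found in 16.1% of TKO-only (76), 37.1% of EB-only (53) and 4.47% of shared regions (36), against 32.1% of all regions. Among these were the TKO-only regions of Nipbl, Pan3, Robo1, Gars and Yars and the EB-only regions of Atrx, Smarca2, Smarca5, Xrn2 and Dscam.

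Shared regions could be compared by their ranks in the 4 lists. Both TKO ESC ranks were above both WT EB ranks in 207 of 805 shared regions (25.7%) and below both in 113 (14.0%). With ranks taken among the shared regions only, these counts were 165 and 155. A limma fit on the percentiles over all 805 regions called 0 regions in either direction at a Benjamini-Hochberg adjusted p under 0.05 (smallest adjusted p = 0.297), and at an unadjusted p under 0.05 it had 55 higher in TKO ESC and 17 higher in WT EB. With ranks among the shared regions only, the unadjusted counts were 52 and 35. With 2 libraries against 2 neither fit shows that the ranks were alike. On the log2 scale of fold enrichment, centred on the median of each list, 1 region passed, in an intron of Agtpbp1, a deglutamylase of tubulin (adjusted p = 0.035). Its fold enrichments were 7.44, 42.2 and 21.3 in TKO ESC and 6.11, 7.47 and 5.65 in WT EB replicates 1 to 3.

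The rank differences were arranged by transcript part. Of 367 shared intronic regions 143 (39.0%) ranked higher in TKO ESC and 41 (11.2%) higher in WT EB without overlap, with a median difference of 5.82 percentile points (TKO ESC minus WT EB). Of 369 shared coding-sequence regions 50 (13.6%) ranked higher in TKO ESC and 63 (17.1%) did so in WT EB. Their median was -0.82 points, against 25.7% and 14.0% and 2.72 points over all shared regions. Distance to an exon separated the introns further. Over 200 bp from an exon 109 of 180 (60.6%) ranked higher in TKO ESC and 7 (3.89%) did so in WT EB, the median being 17.8 points. Within 200 bp the counts were 34 and 34 of 187 (18.2% each), with a median of -0.23 points, close to the coding sequence. Ranked among shared regions only, 91 and 9 of the introns over 200 bp from an exon and 37 and 85 coding-sequence regions ranked higher in TKO ESC and in WT EB, respectively.

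**Figure D5:**
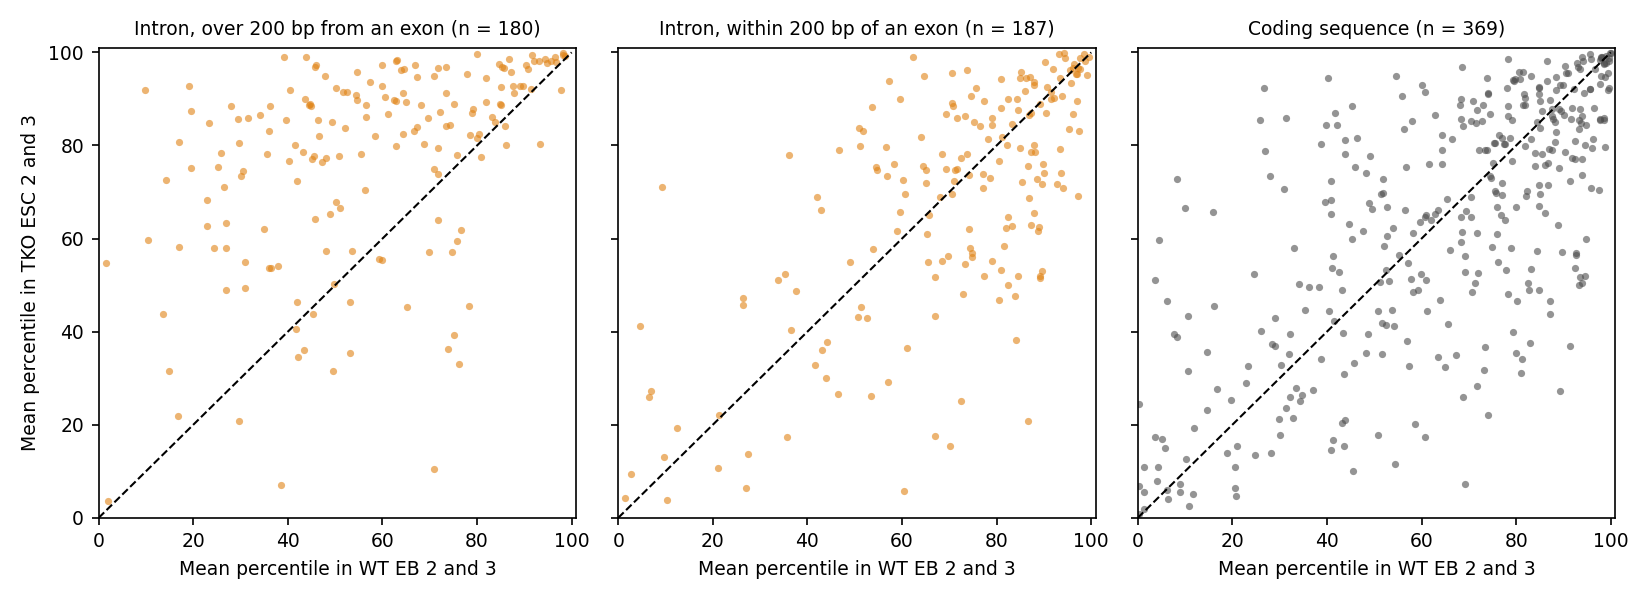
Mean percentile of fold enrichment in TKO ESC replicates 2 and 3 (y axis) against that in WT EB replicates 2 and 3 (x axis) for shared regions, by transcript part, with a dashed line of equal rank. Over 200 bp from an exon 109 of 180 intronic regions have both TKO ESC ranks above both WT EB ranks, and in coding sequence 50 of 369.

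By library, the mean percentile of shared introns over 200 bp from an exon was 78.3 and 76.1 in TKO ESC replicates 2 and 3 and 56.7 and 58.0 in WT EB replicates 2 and 3 (SD over regions 24.3 to 27.2). That of shared coding sequence was 64.4 and 61.5 in TKO ESC and 59.1 and 68.1 in WT EB. The mean percentile of all shared introns minus that of coding sequence was 7.85 and 11.6 in TKO ESC and 2.25 and -1.37 in WT EB, a difference of 9.29 points (exact permutation p = 0.333, the smallest possible). Replicate 1 did not show this. There the introns minus coding sequence came to 12.05 points in TKO ESC and 36.8 in WT EB, and over 6 libraries the groups overlapped (-2.07 points, exact permutation p = 1.0). Among the 70 shared regions with a peak in replicate 1 of both groups, the TKO ESC percentile was higher in 48. It was higher in 9 of 21 introns over 200 bp from an exon, 3 of 6 introns within 200 bp and 30 of 34 coding-sequence regions. Of the 28 of these 70 that ranked higher in TKO ESC in replicates 2 and 3, 17 did so in replicate 1, and of the 6 that ranked higher in WT EB, 4 ranked higher in TKO ESC in replicate 1.

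The 6 shared regions with the highest ranks were chosen for being high in all 4 libraries of replicates 2 and 3, so their percentiles could differ little, and 4 of them lay in coding sequence. Mphosph8, of the HUSH silencing complex, had fold enrichments of 42.2 and 36.7 in TKO ESC replicates 2 and 3 and 45.3 and 65.8 in WT EB replicates 2 and 3, and 11.1 in TKO ESC replicate 1. Htatsf1, a transcription elongation and splicing factor, had 59.0 and 32.7 against 30.7 and 55.0, and was present in both replicate 1 lists (14.9 and 5.55). The condensin gene Smc2 had 31.2 and 22.5 against 28.9 and 42.9, and Ankrd12 41.7 and 22.6 against 21.6 and 38.9. Dyrk1a, a protein kinase gene, had 28.9 and 45.3 against 23.6 and 23.9 in intron 2. Xist, the noncoding RNA of X inactivation, had 25.5 and 31.2 against 27.9 and 50.2. The groups overlapped in percentile for Htatsf1, Ankrd12, Dyrk1a and Xist. In Mphosph8 and Smc2 both WT EB percentiles lay above both TKO ESC percentiles, by a mean of 0.17 and 0.88 points.

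Among shared regions that ranked higher in TKO ESC, the largest differences were in Mtfr1, Dab1, Kif4, Ylpm1, Rbm25 and AW554918. Mtfr1, a regulator of mitochondrial fission, had fold enrichments of 18.96 and 11.7 in TKO ESC replicates 2 and 3 and 4.88 and 4.52 in WT EB (81.9 ± 7.53 percentile points, SE, limma adjusted p = 0.297). Dab1, the adaptor of reelin signalling, had 15.4 and 14.5 against 6.19 and 4.12, but only 4.10 in TKO ESC replicate 1, and the chromokinesin gene Kif4 13.8 and 10.98 against 5.76 and 4.92. The coding-sequence regions of Ylpm1 (15.8 and 13.8 against 5.14 and 6.48) and of the splicing factor gene Rbm25 (8.10 and 10.9 against 4.37 and 4.64) and the intron of AW554918 (12.3 and 8.96 against 5.62 and 4.88) followed. None passed the limma threshold.

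In the other direction Pspc1, a paraspeckle protein gene, led with 4.01 and 5.64 in TKO ESC and 13.97 and 11.2 in WT EB, in an intron 2 bp from an exon (-65.8 ± 14.9 points, SE, limma adjusted p = 0.404). Terf1, of the telomere-capping shelterin complex, had 5.99 and 5.17 against 13.3 and 12.97 in coding sequence. Sfrs18 had 5.01 and 2.74 against 13.04 and 7.01, Tra2b, a splicing activator gene, 4.24 and 4.67 against 8.69 and 9.70, and Appl1, an endosomal adaptor gene, 4.16 and 5.09 against 9.07 and 9.005. Hells, a remodeller needed for DNA methylation, had 4.09 and 4.04 against 6.07 and 14.5 in intron 3, whereas its 3′ UTR region had 10.1 and 9.17 against 5.30 and 4.63. The groups did not overlap in any of these, and none passed the threshold.

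The classes were also read at the level of genes. Of 2998 coding genes with a peak in any of the 6 libraries, 337 (11.2%) had a TKO-only region, 110 (3.67%) an EB-only region and 436 (14.5%) a shared region. No WT EB peak at all was listed in 189 of the 337 genes with a TKO-only region (56.1%), and no TKO ESC peak in 39 of the 110 with an EB-only region (35.5%), against 39.7% and 16.5% of all 2998 genes. The other TKO-only and EB-only genes had peaks of the second group at another place. The 39.7% and 16.5% also count genes with no peak in the group that the class requires, which cannot enter it. Part of the excess therefore follows from the rule. A shared region as well was held by 64 genes with a TKO-only region (18.99% of these and 14.7% of genes with a shared region) and by 33 genes with an EB-only region (30% and 7.57%).

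Both a TKO-only and an EB-only region were held by 10 genes, 2.97% of the first group and 9.09% of the second. Nat10, the RNA cytidine acetyltransferase gene, had a TKO-only intronic region (chromosome 2, 103564215 to 103564422, fold enrichments 7.40 and 4.93) beside EB-only intronic regions at 103565096 to 103565296 (6.51 and 9.07) and 103565691 to 103565909 (6.08 and 6.51). Smarca5, the ISWI remodeller ATPase gene, had a TKO-only intron region with 8.19 and 8.69 and 2 EB-only intron regions with 6.60 and 8.12 and with 6.30 and 8.29. Adam23, Atp13a3 and 0610010F05Rik had 1 intronic region of each class. Hook1, a microtubule adaptor gene, had its TKO-only region in coding sequence (5.62 and 5.60) and its EB-only region in the 3′ UTR (6.63 and 10.1).

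Gene lists chosen with earlier results known were counted against the shares over all genes with a peak given above. These were 11.2% for a TKO-only, 3.67% for an EB-only and 14.5% for a shared region. The share of all annotated genes with any peak was not counted, so the numbers of list genes with a peak have no background. Of 30 pluripotency regulators 11 had a peak in any of the 6 libraries, 3 had a TKO-only region (Tcfcp2l1, Lin28b and Zfx) and 1, Rif1, an EB-only region, which stood beside a shared one. Peaks were listed in TKO ESC alone for 3 of the 11 and in WT EB alone for 4, against 39.7% and 16.5% of all 2998 coding genes with a peak. Lin28b, an inhibitor of let-7 processing, had 6.70 and 7.62 in its 3′ UTR in TKO ESC, and Zfx had 6.05 and 4.25. Of 31 germ layer genes in the annotation 3 had a peak, and Dab2 alone had an EB-only region. Of 20 basement membrane and endoderm cytoskeleton genes 9 had a peak, 3 of them in TKO ESC only and 5 in WT EB only. There Col4a1, a collagen of the basement membrane, had the 1 EB-only region (4.27 and 3.77, percentiles 4.97 and 3.20), and Lama1 had a shared one. The Col4a1 region also had a peak in all 3 WT ESC libraries. Of 41 LIF, FGF, Wnt, BMP and Nodal genes 10 had a peak and 1, Tcf7l1, a TKO-only region (4.29 and 6.61). Of 30 Polycomb genes 9 had a peak, with Mtf2 TKO-only, where Tmed5 overlaps, and Phc1 shared.

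Neuronal guidance and adhesion genes had 13 of 32 members with a peak, 9 of them in TKO ESC alone and 1 in WT EB alone, which is to be read against the same 39.7% and 16.5% over all genes. TKO-only regions lay in Cdh4, Dab1, Ncam1, Igsf21 and Robo1, all intronic, with 7.45 and 6.27 in the adhesion gene Ncam1 and 6.70 and 4.93 in the guidance receptor gene Robo1. Dscam, a neuronal adhesion gene, had an EB-only region (6.16 and 5.72). Over all 2998 coding genes with a peak 11.2% had a TKO-only and 3.67% an EB-only region. The regions of Ncam1, Robo1 and Dscam hold tandem repeats of purines. These genes are long, from 220 kb for Igsf21 to 1125 kb for Dab1.

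The remodeller list and the cohesin, condensin and kinesin list each had genes with regions of all 3 classes. Their counts stand against 11.2% TKO-only, 3.67% EB-only and 14.5% shared among all 2998 coding genes with a peak. Of 37 BAF, NuRD, INO80 and CHD remodeller genes 24 had a peak, 5 had a TKO-only region (Arid1b, Chd8, Chd9, Smarca5 and Smarcc2), 5 an EB-only region (Atrx, Chd1, Ep400, Smarca2 and Smarca5) and 8 a shared region. Arid1b, a BAF subunit gene, had 6.71, 9.65 and 8.85 in TKO ESC replicates 1 to 3, 47709 bp from an exon, and Smarcc2, a further subunit, 6.38, 8.19 and 10.6. The EB-only regions of Ep400 (8.92 and 6.30), Atrx (5.32 and 9.55) and Smarca5 lay within 200 bp of an exon, as did the TKO-only regions of Smarcc2 (29 bp), Chd9 (32 bp) and Chd8 (178 bp). Of 34 cohesin, condensin and mitotic kinesin genes 23 had a peak and 16 a shared region, against 3 with a TKO-only region (Nipbl, Smc5 and Smc6) and 1 with an EB-only region (Smc3). Their 51 shared regions had a median rank difference of -1.09 points, with 7 higher in TKO ESC and 8 in WT EB without overlap, against 25.7% and 14.0% of all 805 shared regions and a median of 2.72 points. Of 19 DNA methylation and Tet genes 7 had a peak and Mbd2, a methyl-CpG binding protein gene, had a TKO-only region (7.35 and 4.93).

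The lists of SR and hnRNP genes, of RNA modification and decay genes and of ribosomal protein genes each had genes with regions of all 3 classes. The same 11.2%, 3.67% and 14.5% over all 2998 coding genes with a peak are the background of the TKO-only, EB-only and shared counts. Of 41 SR and hnRNP genes 30 had a peak and 14 a shared region, with 3 TKO-only (Hnrnpf, Syncrip and Hnrnpa2b1) and 2 EB-only (Sfpq and Hnrnpm). Their 24 shared regions had a median difference of 5.86 points, 11 ranking higher in TKO ESC and 5 in WT EB without overlap, to be read against 2.72 points, 25.7% and 14.0% over all shared regions. Of 32 core spliceosome genes 15 had a peak and 9 a shared region. Of 31 RNA modification and decay genes in the annotation 13 had a peak. The adenosine deaminase gene Adarb1 (9.28 and 8.96) and the deadenylase gene Pan3 (4.60 and 6.27) had TKO-only regions, and the exonuclease gene Xrn2 (5.95 and 8.08) an EB-only region, and 3 genes held a shared one. Of 31 translation factor and tRNA synthetase genes 16 had a peak and 4 a shared region, with Gars and Yars TKO-only, and of 40 ribosomal protein genes 8 had a peak, with Rps24 TKO-only, Rpl5 EB-only and 1 gene shared. Of 17 imprinted and nuclear noncoding RNA genes in the annotation 9 had a peak, and Xist, Tsix, Malat1 and Meg3 had shared regions. Without strand, reads of Xist and its antisense partner Tsix cannot be told apart where they overlap.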

How the data were processed

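RNA from TKO ESC, WT EB and WT ESC (3 libraries each) and from 4 knock-in libraries was immunoprecipitated with an anti-5hmC antibody. The authors removed rRNA and tRNA reads with Bowtie2, trimmed with Trimmomatic, mapped with STAR to mm9 and called peaks with MACS2 for each library against its own input (q-value threshold 0.05). Each deposited list holds intervals of 200 bp around each summit and, except for the knock-in lists, the fold enrichment over input, a ratio computed by the authors' peak caller. Read counts were not used here, so the depth is unknown. 5hmC may still be present below the threshold where no peak was listed. Inputs were not analysed on their own.

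Intervals were merged with Python 3.11.15 (pandas 2.3.3, scipy 1.17.1) and annotated by the summit with GENCODE M1 on NCBIM37, a coding gene taking precedence and coding sequence before UTR before intron. Sequence was read with samtools 1.23.1 and pysam 0.24.0. Of 467 genes in 15 lists 462 matched the annotation, some through RefSeq synonyms. Fold enrichment was ranked within each list. Shared regions were fitted with limma 3.58.1 (R 4.3.3) on percentiles of replicates 2 and 3, with Benjamini-Hochberg adjustment, and libraries were compared by exact permutation tests, two-sided unless stated. Classes, limma fit and permutation tests were tested on simulated data, in which limma recovered few of the smaller planted differences. No pair of the 6 lists had more than 1.53% identical intervals. Groups and replicate numbers came from the sample titles. The classes, gene lists and rules were chosen with earlier results of these data known.

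Named were the Tet genes, the 8 TKO-only and 8 EB-only coding-gene regions and the 6 shared regions with the highest lowest percentile, in each direction the 6 shared coding-gene regions with the largest rank difference and no overlap, the 6 specific regions of each class highest in all 3 replicates, the 4 genes with most regions of each class, at most 4 list members of each class and 6 genes with both specific classes. Dab2's second region, Agtpbp1, the Hells 3′ UTR and shared list members were named after their values were seen. The alternatives are given in the closing section. Results for 2 of the genes chosen by these rules are not reported here.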

Additional observations from a re-analysis of the deposited data

How the results depend on the processing

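Of 213 recomputed values for 26 results, 190 had the same sign and the same outcome of the test, lay within the reported value's 95% interval where no test was run or, as counts, stayed within 1.5 times. Some of these still moved: the 3′ UTR difference was -0.18 points without WT EB replicate 1, the intronic difference per library ran from 5.18 to 15.4 points when libraries were left out, and 1.79% of EB-only regions had a WT EB replicate 1 peak with equal lists. For permutation tests the 190 reflect the sign only, because the p-value could not fall below 0.1 in any run and the outcome was fixed. This covers 11 values for similarity, 13 for the intronic share per library and 11 for the intergenic share. It also covers 12 for the 3′ UTR share and 11 for the distance to an exon. A further 9 and 10 were limma counts of 0 in TKO ESC and in WT EB, as in the main fit. The difference in intronic share between TKO-only and EB-only regions was positive in every alternative run. It was 42.8 points with lists of equal length and 48.4 points when any overlap with an exon counted as exonic, and it ran from 17.9 to 34.98 points when libraries were left out in turn. With equal lists there were 194 TKO-only and 418 shared regions, and 80.9% of TKO-only regions had a WT ESC peak. With only peaks at or above their list's median fold enrichment there were 275 TKO-only, 77 EB-only and 352 shared regions, 32.5% of EB-only regions had a WT ESC peak and 8.73% of TKO-only regions a peak in TKO ESC replicate 1. Leaving out each library in turn gave 473 to 2103 TKO-only and 143 to 1266 EB-only regions, WT ESC shares of 44.7% to 74.1% for TKO-only and 19.98% to 55.9% for EB-only regions, and a similarity within minus between groups of -0.0286 to 0.00358. The last of these, without WT EB replicate 3, turned the direction (one-sided exact permutation p = 0.3). The classes lose a condition when a library of the rule is left out, so larger counts follow from their construction. On the centred log2 scale limma called 1 shared region higher in TKO ESC. Of 78 named regions 70 were in the same class when joining needed 100 bp, 40 with equal lists and 36 with peaks at or above the median.

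Replicate numbers were also used as a block, though the labels do not say that they pair cultures. Over 805 shared regions the percentile of replicate 2 minus that of replicate 3 in TKO ESC had a correlation of -0.0688 with the same difference in WT EB. With the block the exact permutation p-values were 0.5 for similarity (-0.0123), the intronic share (8.70 points) and the intergenic share (6.24 points), and 0.25, the smallest possible, for the 3′ UTR share (-1.92 points) and the distance to an exon (783 bp). The limma fit with the block called 0 regions in each direction (44 and 12 at an unadjusted p under 0.05). Depth is unknown, so whether a missing peak reflects fewer reads was not tested.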
